A study of Mus musculus with 5 samples.

Results

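A set of 10 genes of the hypoxia-inducible factor (HIF) pathway were followed in the neonatal mouse heart with and without the long non-coding RNA Charme. They were the HIF alpha subunits Hif1a and Epas1, the oxygen-sensing prolyl hydroxylases Egln1 and Egln3, and 6 genes known as HIF targets, namely Bnip3, Pdk1, Vegfa, Adm, Ankrd37 and Ndrg1. The rule names the genes by symbol and uses no threshold on a measured value, though the genes were picked with earlier results of these data known, and the set held 10 of the 49671 genes of the deposited count table. All 10 were found and all 10 passed the filter on low counts.

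RNA-seq of poly(A) RNA had been performed on whole hearts of C57BL6/J mice at PN2, which is postnatal day 2. There were 3 Charme WT pools of 9 hearts each and 2 Charme KO pools of 3 hearts each, so that genotype and the number of hearts in a pool cannot be told apart. Charme is transcribed in cardiac and skeletal muscle, and the labels give the knockout as a genotype of the mice without naming its allele. A pool averages its hearts, so every test below measures the spread between pools.

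Charme itself was compared first, as a check of the labels. It had 39.3, 10.4 and 14.0 CPM (reads scaled to a common library size) in the Charme WT pools and 4.04 and 3.54 CPM in the Charme KO pools, from 810, 183, 276, 57 and 79 reads. Both Charme KO pools were below every Charme WT pool. Gene-assigned reads totalled between 16721055 and 21646378 a pool. Charme KO pool 1 stood apart in mitochondrially encoded reads, with 21.1% of its counts against 9.68 to 11.1% in the other pools. Charme KO pool 2 stood apart in salivary gland genes, which took 2.54% of its counts, against 0.0276% in the other knockout pool and at most 0.000372% in Charme WT. The 7 cardiomyocyte markers together took between 4.44% and 5.39% of counts in the Charme WT pools and 3.58% and 4.36% in the Charme KO pools. Their sum was thus lower in each Charme KO pool than in any Charme WT pool. By gene, 3 had higher and 4 lower values in Charme KO, and none of their changes passed the test. Only Myh6 was below every Charme WT pool in both Charme KO pools, and DESeq2, used below as an alternative, called it lower (adjusted p = 0.0968).

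HIF is a dimer of an oxygen-regulated alpha subunit and the constant partner ARNT. With oxygen present, the EGLN enzymes hydroxylate the alpha subunit, which lets the VHL ubiquitin ligase mark it for degradation, whereas in low oxygen it persists and binds DNA at a short core sequence. The mouse heart moves at birth from the low oxygen of the fetus, in which it relies largely on glycolysis, towards the oxidation of fatty acids. Since HIF alpha is regulated mainly as a protein, its transcript level does not report its activity.

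In Charme WT hearts the 10 genes covered a range from 39.6 ± 0.417 FPKM (fragments scaled to gene length and library size; mean ± SD, n = 3) for Egln1 to 2.82 ± 0.812 for Ankrd37. From the highest level down, the order was Egln1, Bnip3, Pdk1, Vegfa, Epas1, Hif1a, Egln3, Ndrg1, Adm and Ankrd37. From Egln1 down to Hif1a, the pools of each gene overlapped those of the next in this order, as did those of Ndrg1 and Adm. Neighbours did not overlap between Hif1a and Egln3, between Egln3 and Ndrg1, and between Adm and Ankrd37.

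**Figure D1:**
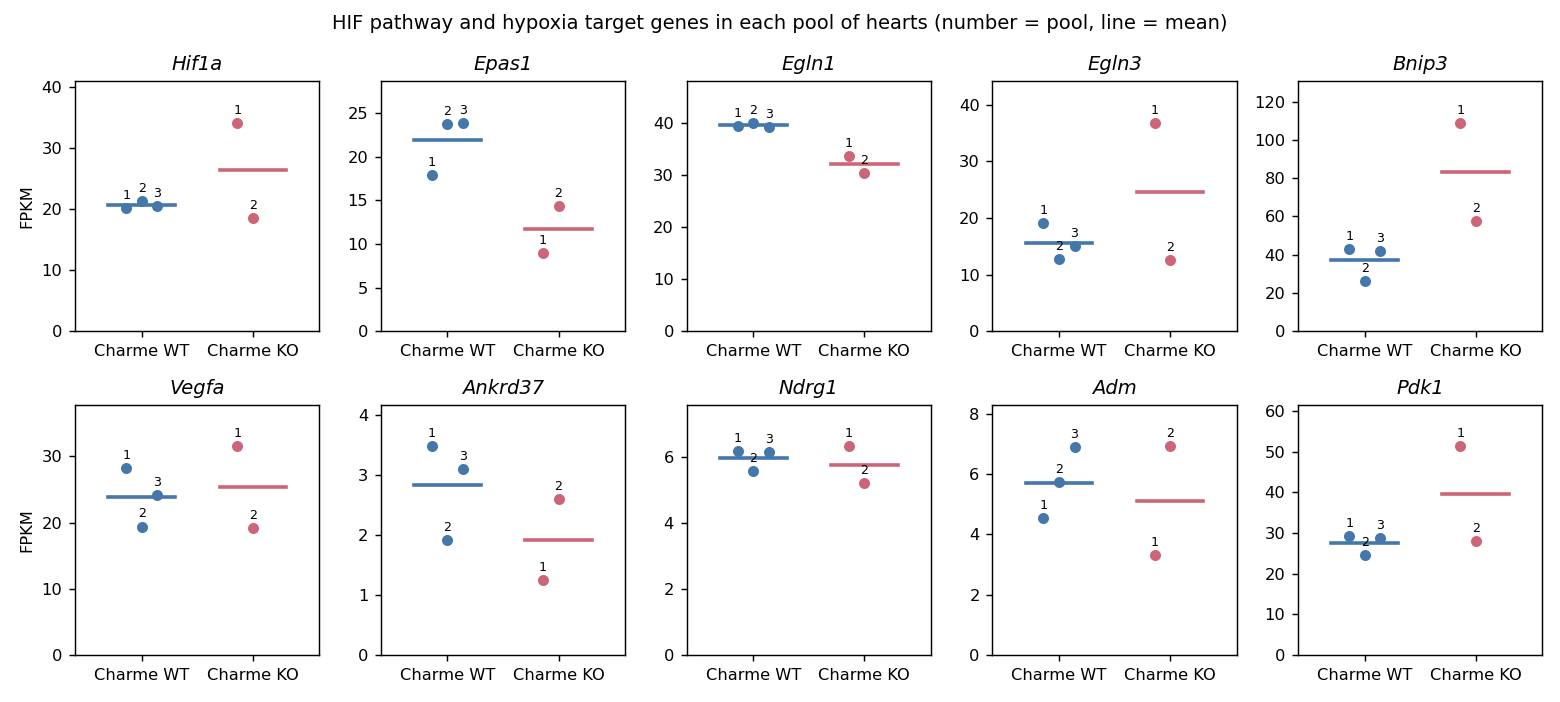
Levels of the 10 HIF pathway genes in FPKM (vertical axes) in each of the 3 Charme WT and 2 Charme KO pools, with 1 numbered point a pool and a line at each genotype's mean. For Bnip3 the lower knockout pool exceeded the highest Charme WT pool, for Epas1 and Egln1 both knockout pools were under the lowest, and for Hif1a, Egln3, Vegfa and Ndrg1 the Charme KO pools lay on opposite sides of the Charme WT pools.

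The core that HIF binds is ACGTG or GCGTG, and stretches that hold it are shown because this is the sequence through which HIF is known to act on its targets. The RefSeq promoter windows on GRCm38.p6, from 250 bases before to 50 bases after the start, had entries for 8 of the 10 genes, not for Epas1 and Ndrg1, and 10 windows in all. A core on either strand was found in 8 of these 10 windows, or 80.0%, and in 14380 of 32851 promoters of all genes, or 43.8%. In the lines below capitals mark the core, read on the opposite strand as CACGT or CACGC, and each stretch is given 5′ to 3′ on the strand of its gene.
Bnip3 (chr7:138909591-138909633, minus strand): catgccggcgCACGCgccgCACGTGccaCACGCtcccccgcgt
Ankrd37 (chr8:45999988-46000015, minus strand): cttcactgcgCACGCGTGctgcggccgc
Hif1a (chr12:73907722-73907747, plus strand): cacagacaagCACGTGagcggggcag
Egln1 (chr8:124949308-124949332, minus strand): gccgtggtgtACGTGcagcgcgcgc
Egln3 (chr12:54204089-54204113, minus strand): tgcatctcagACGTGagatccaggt
Pdk1 (chr2:71873136-71873160, plus strand): gcctacatggGCGTGtctttaacca
Adm (chr7:110627593-110627617, plus strand): caaatctgacCACGCccaccgtccg
Vegfa (chr17:46025360-46025391, minus strand): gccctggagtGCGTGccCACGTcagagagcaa
Bnip3 had the most matches, 5 in its window with 4 of them in the stretch shown, whose last base lies 85 bases before the start. Ankrd37 had 4 matches and Hif1a 3, and 3.86% of all promoters held 4 or more. Where a core and its opposite-strand reading overlap, as in CACGTG of Bnip3 and Hif1a or CACGCGTG of Ankrd37, both were counted. The Hif1a, Ankrd37 and Vegfa stretches lie inside the annotated gene, before RefSeq starts within it. The RefSeq starts of Egln1 and Bnip3 are also inside the annotated gene. The Egln1 stretch overlaps the beginning of its gene, and the Bnip3 stretch lies outside its gene. The second windows of Vegfa and Pdk1 held no match. A match describes the letters only, and no binding was measured here.

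None of the 10 genes passed the test between genotypes, which was the quasi-likelihood test of edgeR, adjusted after Benjamini and Hochberg over 14880 genes, where a call needed a mean of at least 1 FPKM in 1 genotype and an adjusted p under 0.1. Of all genes tested 305, or 2.05%, were called, 227 (1.53%) higher and 78 (0.524%) lower in Charme KO. At an unadjusted p under 0.05 there were 2 of the 10 genes, Bnip3 higher and Epas1 lower, beside 18.6% of all genes. The same 2 genes were called by edgeR's likelihood ratio test, which called 6.27% of all genes, and by DESeq2, which called 7.54%. The median log2 fold change of Charme KO over Charme WT was 0.01 over the 10 genes, of which 5 had higher and 5 lower values, and 0.02 over all genes. The 5 pools can be assigned to the genotypes in 10 ways, so an exact permutation test of a single gene cannot give a p below 0.1.

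**Figure D2:**
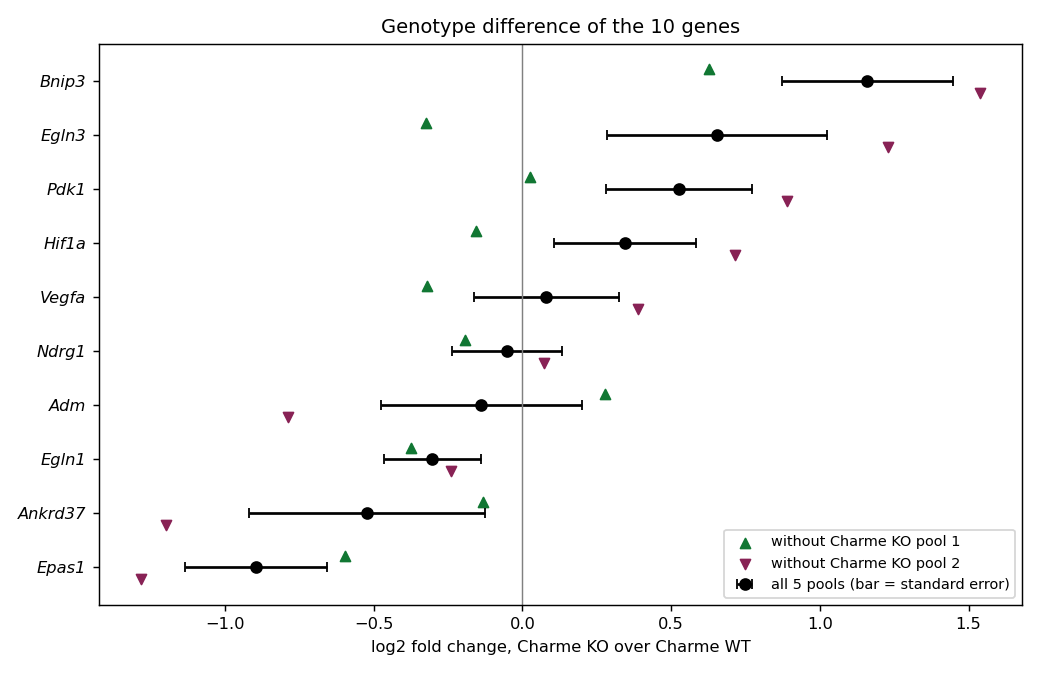
Log2 fold changes of Charme KO over Charme WT for the 10 genes (horizontal axis), with circles and bars of 1 SE from edgeR for all 5 pools and triangles for the values with either Charme KO pool left out. Bnip3 at 1.16 and Epas1 at -0.90 lay farthest from 0 with all pools, and Vegfa, Ndrg1 and Adm lay within 1 SE of 0.

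The alpha subunits had different patterns. Epas1, which encodes HIF-2 alpha and is expressed strongly in endothelium (GRCm38 chr17:86753700-86833410, plus strand), was at 17.9, 23.8 and 23.9 FPKM in Charme WT and at 9.02 and 14.4 FPKM in Charme KO. Both Charme KO pools were below every Charme WT pool. The log2 fold change was -0.90 (SE 0.238), a fold of 0.537, with an adjusted p of 0.124 by the quasi-likelihood test, 0.0291 by the likelihood ratio test and, in DESeq2, 0.0161. The value kept its sign when each pool was left out, at -0.60 without Charme KO pool 1 and -1.28 without pool 2.

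Markers of vascular cells were set beside Epas1. The 7 endothelial markers together took 0.105, 0.137 and 0.129% of counts in Charme WT and 0.0739 and 0.117% in Charme KO, so Charme KO pool 1 was below every Charme WT pool and Charme KO pool 2 was not. Of the 7, 5 had lower and 2 higher values, none passed the test, and none was at 0 in any pool. Ptprb (log2 fold change -0.57) and Egfl7 (-0.25) were, like Epas1, below every Charme WT pool in both Charme KO pools, as were 18.2% of all genes. Their median difference from the Charme WT mean was -0.70 in Charme KO pool 1 and -0.06 in pool 2 on the log2 CPM scale, against -1.26 and -0.59 for Epas1. The 7 markers of mural cells, which wrap the vessels, took 0.104, 0.206 and 0.121% of counts in Charme WT and 0.112 and 0.164% in Charme KO, so their sums overlapped. None passed the test and none was at 0 in any pool, but 5 had lower values. Of these, 3 were below every Charme WT pool in both Charme KO pools, as were 18.2% of all genes. They were Pdgfrb (log2 fold change -0.74), Kcnj8 (-0.57) and Cspg4 (-0.37). The median difference of the mural markers was -0.48 in Charme KO pool 1 and -0.23 in pool 2. In whole hearts, fewer cells of a type and less RNA per cell cannot be told apart, and the part of the vascular markers in the Epas1 values was not tested.

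Hif1a, the alpha subunit made in nearly all cells (chr12:73901375-73947530, plus strand), was at 20.2, 21.3 and 20.4 FPKM in Charme WT and at 34.1 and 18.5 FPKM in Charme KO. The Charme WT pools lay within a narrow range, with Charme KO pool 1 above it and Charme KO pool 2 below it. The fitted log2 fold change of 0.35 (SE 0.238) had an adjusted p of 0.450 by edgeR's quasi-likelihood test and turned to -0.16 without Charme KO pool 1 and to -0.040 with a correction for gene length and GC content. As a ratio chosen after the values were seen, Epas1 over Hif1a in FPKM was 0.885, 1.12 and 1.17 in Charme WT and 0.265 and 0.780 in Charme KO. Both Charme KO pools thus had less Epas1 per Hif1a than any Charme WT pool.

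The prolyl hydroxylases differed from each other. Egln1, the main HIF hydroxylase in most tissues (chr8:124908587-124949324, minus strand), was at 39.4, 40.1 and 39.3 FPKM in Charme WT and 33.7 and 30.5 FPKM in Charme KO. Both Charme KO pools were lower, but the log2 fold change of -0.30 (SE 0.164) did not pass the edgeR test, with an adjusted p of 0.344, and was -0.13 with a correction for gene length and GC content. Egln3, itself a strongly hypoxia-inducible enzyme (chr12:54178981-54203860, minus strand), was at 19.1, 12.7 and 15.1 FPKM in Charme WT and 36.8 and 12.5 FPKM in Charme KO. Charme KO pool 1 was above and Charme KO pool 2 just below the Charme WT pools. The log2 fold change was 0.65 (SE 0.371, adjusted p = 0.366, edgeR) with both pools and -0.32 without Charme KO pool 1. Egln3 over Egln1, also chosen after the values were seen, was 1.09 in Charme KO pool 1, 0.410 in pool 2 and 0.317 to 0.484 in Charme WT.

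Bnip3, a mitochondrial outer membrane protein that acts as a receptor for the removal of mitochondria (chr7:138890836-138909519, minus strand), had the largest difference of the 10. It was at 43.0, 26.4 and 41.9 FPKM in Charme WT and at 109 and 57.4 FPKM in Charme KO, and both Charme KO pools were above every Charme WT pool. The log2 fold change was 1.16 (SE 0.288), a fold of 2.23. Its adjusted p was 0.104 by the quasi-likelihood test, just outside the threshold, and 0.0107 by the likelihood ratio test and, in DESeq2, 0.00579. Without Charme KO pool 1 the log2 fold change was 0.63 with an adjusted p of 0.202, and without Charme KO pool 2 it was 1.54 with an adjusted p of 0.00215. Charme KO pool 1, with the highest Bnip3, was the pool with the most mitochondrially encoded reads, and Charme KO pool 2 had 57.4 FPKM with 9.68% of such reads. In a fit without the mitochondrially encoded and salivary gland genes, added after the data were seen, the log2 fold change was 1.15 with an adjusted p of 0.101 by edgeR.

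The genes whose pattern over the 5 pools was most like that of Bnip3, by Pearson's r of log2 CPM among 11079 genes, were 2410004B18Rik (r = 0.9990), Mysm1 (0.9985) and Ube2v2 (0.9968). With 5 pools such values are common, and 315 genes had an r over 0.95. Mysm1, which encodes a histone H2A deubiquitinase, was at 1.21, 0.949 and 1.24 FPKM in Charme WT and 2.03 and 1.41 in Charme KO. The same search for Epas1, chosen after its values were seen, gave Cuedc1 (0.9996), Trp53i11 (0.9994) and Stard8 (0.9992), with 716 genes over 0.95. These likenesses are descriptions only, since in each pool the compared genes share the library, depth and genotype of that pool.

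Pdk1, the kinase that inactivates pyruvate dehydrogenase and so keeps pyruvate out of the mitochondrial cycle (chr2:71873224-71903858, plus strand), was at 29.2, 24.5 and 28.8 FPKM in Charme WT and 51.3 and 28.0 FPKM in Charme KO. Charme KO pool 1 was above every Charme WT pool and Charme KO pool 2 lay among them. The log2 fold change was 0.53 (SE 0.245, adjusted p = 0.283, edgeR) and fell to 0.03 when Charme KO pool 1 was left out.

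The related kinases Pdk2 and Pdk4 fell. Pdk4, the isoform linked to fatty acid use, was at 95.8, 81.2 and 110 FPKM in Charme WT and 36.2 and 35.8 in Charme KO, a log2 fold change of -1.41 (SE 0.194, adjusted p = 0.0336, edgeR). Pdk2 was at 117, 108 and 113 FPKM and at 48.6 and 68.6 FPKM, a log2 fold change of -0.94 (SE 0.200, adjusted p = 0.0693, edgeR). Both were lower in each Charme KO pool than in any Charme WT pool. Pdk1 over Pdk2 in FPKM, chosen after the values were seen, was 0.250, 0.228 and 0.255 in Charme WT and 1.05 and 0.407 in Charme KO. Among 13 tested of 14 listed paralogues of the set, these 2 fell and none rose (median log2 fold change -0.12). Leaving out Charme WT pool 1 or 3 left no paralogue called, and leaving out Charme WT pool 2 left 1, which was Pdk4. The others named by abundance were Vegfb at -0.10 and Ndrg2 at -0.29, neither of which passed the test. Of the 7 genes of the pyruvate dehydrogenase complex and its phosphatases none passed the test, 6 had higher values, and the median was 0.35. Its 3 most abundant genes had log2 fold changes of 0.35 (Pdha1), 0.37 (Pdhb) and 0.51 (Dld), which were 0.14, 0.17 and 0.03 with the length and GC correction.

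The secreted factors showed no difference beyond the spread of the pools. Vegfa, the main endothelial growth factor (chr17:46016993-46032369, minus strand), was at 28.2, 19.4 and 24.1 FPKM in Charme WT and 31.5 and 19.1 FPKM in Charme KO. Adm, the vasodilator peptide adrenomedullin (chr7:110627661-110629820, plus strand), was at 4.53, 5.73 and 6.90 FPKM and at 3.33 and 6.92 FPKM. For each gene the Charme KO pools lay on either side of the Charme WT pools, in opposite order. The log2 fold changes were 0.08 (SE 0.243, adjusted p = 0.880) for Vegfa and -0.14 (SE 0.338, adjusted p = 0.848) for Adm by edgeR, and both turned sign with Charme KO pool 1 left out, to -0.32 for Vegfa and 0.28 for Adm.

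Around these ligands, a list of 18 vascular ligands and receptors was read, of which 1 passed the test. It was none of the genes of the VEGF, angiopoietin, apelin and adrenomedullin systems in that list. Cxcl12, a chemokine of stromal and vascular cells, fell from 15.4, 15.8 and 17.6 FPKM to 9.14 and 10.3 FPKM, a log2 fold change of -0.74 (SE 0.173, adjusted p = 0.0883, edgeR). It was not called without any 1 of the Charme WT pools. Angptl4, an inhibitor of lipoprotein lipase and the most abundant gene of this list in Charme WT, was at 51.8, 38.0 and 47.3 FPKM and at 7.28 and 24.0 FPKM, with a log2 fold change of -1.54 and an adjusted p of 0.121 by edgeR. The adrenomedullin receptor partners Ramp1 and Ramp2 had log2 fold changes of 0.15 and -0.19. Of the 18 genes 9 had higher and 9 lower values, with a median of -0.04. Both Charme KO pools were below every Charme WT pool in 4 and above in 2, beside 18.2% and 17.8% of all genes. The 4 included the VEGF receptors Kdr (log2 fold change -0.64) and Flt1 (-0.56), chosen after their values were seen, which did not pass the test.

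The remaining targets were at lower levels. Ankrd37, a small ankyrin-repeat protein (chr8:45996902-46005707, minus strand), was at 3.47, 1.91 and 3.09 FPKM in Charme WT and 1.24 and 2.59 FPKM in Charme KO, from 110, 52, 94, 27 and 89 reads. It was lowest in Charme KO pool 1, while Charme KO pool 2 lay among the Charme WT pools, and the log2 fold change was -0.52 (SE 0.398, adjusted p = 0.494, edgeR). Ndrg1, a stress-responsive cytoplasmic protein (chr15:66929318-66969640, minus strand), was at 6.19, 5.57 and 6.15 FPKM in Charme WT and 6.32 and 5.22 FPKM in Charme KO. Its Charme KO pools lay just outside the Charme WT range on either side, and the log2 fold change of -0.05 (SE 0.185, adjusted p = 0.899, edgeR) was the closest to 0 of the set.

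The Charme KO pools differed from each other in most of the 10 genes. In 4 of them, Hif1a, Egln3, Vegfa and Ndrg1, Charme KO pool 1 was above and Charme KO pool 2 below every Charme WT pool, a pattern held by 6.54% of all genes. Adm showed the opposite. Only Bnip3 was above in both Charme KO pools, as were 17.8% of all genes, and only Epas1 and Egln1 were below in both, as were 18.2%. Charme KO pool 1 lay farther from the Charme WT mean than Charme KO pool 2 in 8 of 10 genes. The same count was not made over all genes, so it is not known whether this is particular to the set. Its differences on the log2 CPM scale included 1.58 for Bnip3, 1.26 for Egln3, 0.90 for Pdk1, 0.72 for Hif1a and -1.26 for Epas1, where Charme KO pool 2 had 0.66, -0.30, 0.03, -0.16 and -0.59.

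**Figure D3:**
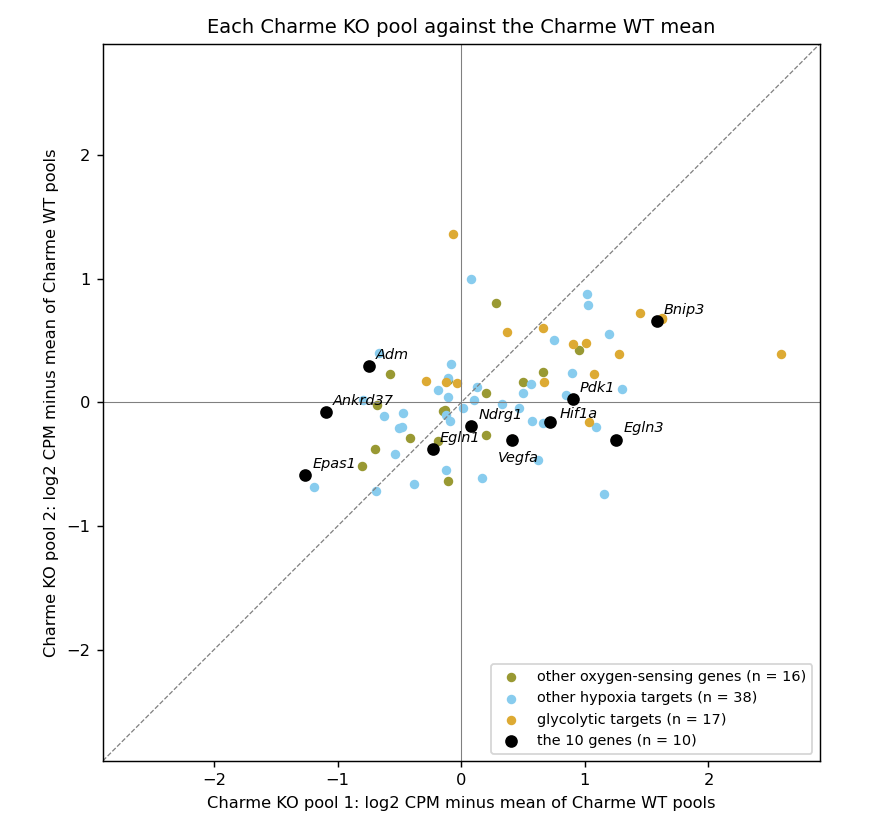
Difference of each Charme KO pool from the Charme WT mean in log2 CPM for the 10 genes in black and 3 further lists in colour, with Charme KO pool 1 on the horizontal and pool 2 on the vertical axis, 1 point a gene, and a dashed line where they are equal. Bnip3 lay above 0 and Epas1 and Egln1 below 0 on both axes, while Hif1a (0.72 and -0.16) and Egln3 (1.26 and -0.30) lay on opposite sides.

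The calls depended on which knockout pool was kept. With Charme KO pool 2 left out, 6 of the 10 genes passed the edgeR test, beside 31.7% of all 14536 genes then tested. Bnip3 (log2 fold change 1.54), Egln3 (1.23), Pdk1 (0.89) and Hif1a (0.71) were higher, and Epas1 (-1.28) and Ankrd37 (-1.20) were lower. With Charme KO pool 1 left out none of the 10 was called, beside 4.33% of all genes. In these fits the lone Charme KO pool is assumed to vary as the Charme WT pools did. Pool 1 was also the pool with 21.1% mitochondrially encoded reads, whose part in this result was not tested.

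The pathway beyond the 10 genes was read from further lists. Of the 16 other genes of oxygen sensing and HIF turnover none passed the test, 2 were called by the likelihood ratio test, 1 in each direction, beside 6.27% of all genes, and 4 had an unadjusted p under 0.05, beside 18.6% of all genes. The VHL complex subunit Eloc was at 24.9, 22.8 and 22.1 FPKM in Charme WT and 44.9 and 31.1 FPKM in Charme KO, with a log2 fold change of 0.71 and an adjusted p of 0.136 by edgeR, and of 0.22 with the length and GC correction. Elob had a log2 fold change of 0.13 and the hydroxylase Egln2 one of -0.31. Arnt, the partner of both alpha subunits, was at 6.96, 7.87 and 8.07 FPKM and at 5.72 and 6.25 FPKM, and the coactivator Crebbp at 3.19, 3.26 and 3.45 FPKM and at 1.89 and 2.31 FPKM. Both Charme KO pools were below every Charme WT pool in these last genes, chosen after their values were seen, and their adjusted p-values in edgeR were 0.313 and 0.146. The list median was -0.10.

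Of 40 further hypoxia targets outside glycolysis 38 were tested, and 1 passed, the circadian and hypoxia-responsive repressor Bhlhe40. It fell from 6.49, 7.69 and 7.75 FPKM to 3.18 and 4.52 FPKM, a log2 fold change of -0.92 (SE 0.224, adjusted p = 0.0985, edgeR), and was called with Charme KO pool 2 left out but with no other pool left out. The list had 20 higher and 18 lower values and a median of 0.09. Its most abundant genes by the mean over both genotypes were Mif, a secreted cytokine (log2 fold change 0.90, adjusted p = 0.137), Fam162a, a mitochondrial protein (0.90, adjusted p = 0.105), and Higd1a, a respiratory chain factor (0.60, adjusted p = 0.214), all by edgeR. Fam162a was at 147, 160 and 118 FPKM in Charme WT and 322 and 207 FPKM in Charme KO, without overlap, and its log2 fold change was 0.56 with the length and GC correction. By the Charme WT mean alone Ddit4, Lonp1, Gys1, Ppp1r3c and Pnrc1 stood above Higd1a, all chosen after their values were seen. Gys1 and Ppp1r3c had log2 fold changes of -0.05 and -0.01, and Pnrc1 had one of -0.35, and none of them passed the test. Ddit4, an inhibitor of mTOR signalling, was at 40.3, 24.6 and 34.7 FPKM in Charme WT and 20.1 and 19.8 FPKM in Charme KO, and the mitochondrial protease Lonp1 at 33.8, 33.5 and 31.4 FPKM and at 23.8 and 31.0 FPKM. Both were chosen after their values were seen, both were lower in each Charme KO pool than in any Charme WT pool, and neither passed the test, with adjusted p-values of 0.161 and 0.443 in edgeR. Epo had 0 reads in every pool. Car12, chosen after its values were seen and not tested, had 2, 4, 4 and 8 reads in the first 4 pools and 232 in Charme KO pool 2, the pool with salivary gland reads.

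Of the 17 targets within glycolysis 3 were called, all higher, 16 of 17 with higher values and a median log2 fold change of 0.69, where 1.53% of all genes were called higher. In 10 of the 17 both Charme KO pools were above every Charme WT pool, as in 17.8% of all genes. Pgk1, the first ATP-forming enzyme of the pathway, rose from 201, 242 and 158 FPKM to 607 and 316 FPKM (log2 fold change 1.21, SE 0.287, adjusted p = 0.0948, edgeR). Ldha, which makes lactate, rose from 297, 288 and 214 FPKM to 718 and 435 FPKM (1.11, adjusted p = 0.0948, edgeR). Eno1 rose from 71.3, 86.5 and 61.1 FPKM to 222 and 115 FPKM (1.21, adjusted p = 0.0836, edgeR). The most abundant of the list, Gapdh, Aldoa and Tpi1, had log2 fold changes of 0.75, 0.63 and 0.89 and did not pass. Several of these enzymes have processed copies in the mouse genome, and reads shared with a copy could have been lost or misassigned.

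The glycolytic calls were sensitive to single pools. None of the 17 was called without any 1 of the Charme WT pools, and 11 were called without Charme KO pool 2. Without Charme KO pool 1 there was 1 call, of another gene, and Eno1 (adjusted p = 0.123), Ldha (0.138) and Pgk1 (0.158) all lost theirs in edgeR. The likelihood ratio test called 8, beside 6.27% of all genes. Lists of cell markers held calls too, to be read beside the 1.53% of all genes called higher. All 7 cell cycle markers rose and took 0.0419, 0.0433 and 0.0311% of counts in Charme WT and 0.129 and 0.0883% in Charme KO. Of 7 skeletal muscle markers 4 rose, with sums of 0.00366 to 0.00376% in Charme WT and 0.00798 and 0.0165% in Charme KO, and none was at 0 in all pools. Of 7 adipose markers 5 rose, with 0.0543 to 0.0705% in Charme WT and 0.0589 and 0.213% in Charme KO. The adipose sum of Charme KO pool 1 thus lay within the Charme WT range, but most of its reads were of Fabp4, which was not called. The 5 called adipose markers were above every Charme WT pool in both Charme KO pools, as were 17.8% of all genes. Of these, Ucp1 was at 22.6 FPKM in Charme KO pool 1 and 434 FPKM in pool 2, against at most 2.29 FPKM in Charme WT. Of 7 erythroid markers 3 rose, with 0.0894 to 0.128% in Charme WT and 0.193 and 0.167% in Charme KO. Of 7 epicardial markers all 7 had higher values and 2 were called, Krt8 and Krt19, with sums of 0.00308 to 0.0102% and 0.0127 and 0.0306%. Krt8 was at 4.05 FPKM in Charme KO pool 1 and 83.3 FPKM in Charme KO pool 2, the pool with salivary gland reads. Krt19 was at 8.55 and 12.1 FPKM in these pools, and Wt1 had a log2 fold change of 0.10. Among these lists the sums of erythroid and cell cycle markers were highest in Charme KO pool 1, as were Bnip3, Pgk1, Ldha and Eno1, and those of muscle, fat and epicardial markers in Charme KO pool 2. Of the macrophage markers 1 rose, and of the fibroblast, lung epithelium and thymus markers tested none was called. The part of these markers in the results on the HIF genes was not tested.

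**Figure D4:**
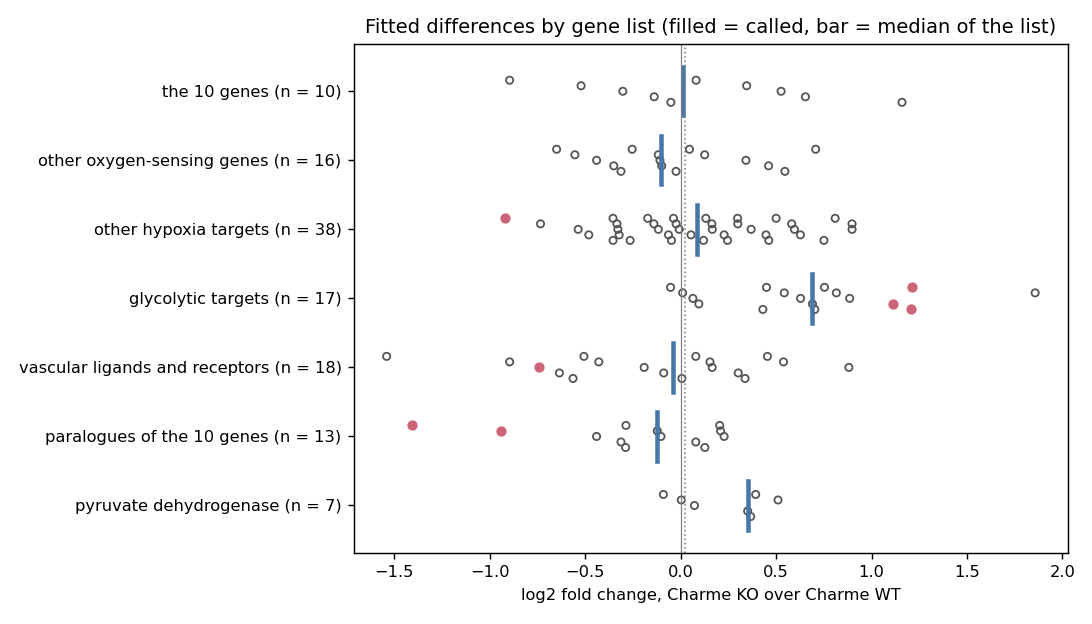
Log2 fold changes of Charme KO over Charme WT (horizontal axis) for the genes of each list, 1 point a gene, filled where called, with a bar at each list's median and a dotted line at the median of all genes. The glycolytic targets have a median of 0.69, and the other lists have medians from -0.12 to 0.35.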

How the data were processed

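Raw read counts per gene had been deposited by the authors for 5 pools of PN2 hearts. Per the paper's methods and the labels, stranded poly(A) libraries were sequenced in pairs, trimmed with Cutadapt and Trimmomatic and aligned with STAR to GRCm38 (mm10), with the strand-aware counts kept on an Ensembl annotation. From these counts, genes that reached 10 counts in 2 or more pools (14880 of 49671) were tested in R 4.3.3 with edgeR 4.0.16 (TMM scaling, glmQLFit with legacy=FALSE, glmQLFTest) on all 5 pools, with Benjamini-Hochberg adjustment. A call required an adjusted p under 0.1 and a mean of at least 1 FPKM in 1 genotype. FPKM was computed from the counts with GENCODE M21 exon lengths (49411 genes matched; 1000 bp where none). Alternatives included edgeR's likelihood ratio test, which the study used, and DESeq2 1.42.0. The deposited FPKM table was not used here, and 0 sample columns of the count table were left out. The fit was tested on simulated data. The genes and lists were chosen with earlier results of these data known. Named genes were the 10, the 3 most abundant and up to 6 called genes of each list, the 3 genes most like the gene with the smallest p, and Charme. The pools are the only replicates, read numbers per gene cover counting error only, and the promoter windows are from RefSeq.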

Additional observations from a re-analysis of the deposited data

How the results depend on the processing

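Over 19 alternative settings, 531 single-gene values kept direction and side of the threshold, 51 lost a call or fell below it, 49 gained one and 15 reversed. Leaving out Charme WT pool 3 gave 0 genes called, Charme WT pool 1 gave 2, Charme WT pool 2 gave 187, Charme KO pool 1 gave 639 and Charme KO pool 2 gave 4607, against 305. Genes called numbered 933 by the likelihood ratio test, 1122 by DESeq2, 111 at an adjusted p under 0.05, 210 with the pool number as replicate block, and 130 with that block and the length and GC correction.

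Of the 10 HIF genes, 2 passed in DESeq2 and in the likelihood ratio test, beside 7.54% and 6.27% of all genes. With the block 2 passed (Epas1, adjusted p = 0.0966, and Bnip3, 0.0238, edgeR), beside 1.41%. In every fit with the block, Charme WT pool 3 has no Charme KO pool of its number. The genotype difference then rests on the pools numbered 1 and 2, with little left to estimate their spread. There was 1 with upper-quartile scaling (Bnip3, beside 1.99%), 1 with the length and GC correction (Epas1, beside 2.39%) and 1 with block and correction (Bnip3, beside 0.874%). With a Charme WT pool left out 0 passed, beside 0 to 1.27%. The legacy and robust tests called 1.76% and 1.49% of all genes, the fit without a filter 1.35%, and an adjusted p under 0.05 called 0.746%. These shares also stand beside the list counts below. The adjusted p ranged from 0.00370 to 0.500 for Epas1 and from 0.00215 to 0.359 for Bnip3. The sensing machinery had 2 calls by the likelihood ratio test and DESeq2 and 0 to 6 with a pool left out. The non-glycolytic targets had 5 by the likelihood ratio test and DESeq2, 2 with the length and GC correction, 2 without mitochondrially encoded and salivary gland genes (chosen after seeing the data), 0 with the legacy or robust test, no filter, an adjusted p under 0.05, the block or block and correction, and 0 to 22 with a pool left out. The glycolytic targets had 8 by the likelihood ratio test and DESeq2, 1 with the correction, 0 at an adjusted p under 0.05, with the block or block and correction, and 0 to 11 with a pool left out. The vascular genes had 3 by the likelihood ratio test, 4 by DESeq2, 2 with the correction, 0 with the legacy or robust test, upper-quartile scaling, an adjusted p under 0.05 or block and correction, and 0 to 9 with a pool left out. The paralogues had 1 at an adjusted p under 0.05 and with block and correction, and 0 to 4 with a pool left out, and the pyruvate dehydrogenase genes 0 to 4.

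Log2 fold changes reversed with the length and GC correction for Hif1a (-0.040) and Ndrg1 (0.14), and with block and correction for Hif1a (-0.10), Ndrg1 (0.12) and Dld (-0.040). With a pool left out they ranged from -0.16 to 0.71 (Hif1a), -0.32 to 1.23 (Egln3), -0.32 to 0.39 (Vegfa), -0.19 to 0.073 (Ndrg1), -0.79 to 0.28 (Adm), -0.71 to 0.18 (Ramp2) and -0.32 to 0.082 (Vegfb). The cause was not tested. The length and GC correction also moved Vegfa to 0.29, Adm to -0.28, Egln2 to -0.15, Higd1a to 0.37, Ramp1 to 0.25 and Ramp2 to -0.11, each by over 1.5 times without a change of call. A check of whether pools of the same number are paired gave a Pearson r of 0.137 (pool 1) and 0.0778 (pool 2) over 14880 genes. It was taken as a check of pairing, not of how alike the levels in the pools were. With 2 pairs, the pools of a pair are known to share only a number. The paper's methods describe the neonates of both genotypes as littermates, without saying which pools shared a litter. The alternative based on the deposited FPKM table was not run. Between 27 and 110 reads lie behind Ankrd37, which limits its precision, and 2 Charme KO pools limit every comparison.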
